A study of Mus musculus with 2 samples.

Results

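Accessible chromatin at 10 genes of neuregulin, ErbB and Cxcl12 signalling was described in striatal nuclei of wild-type mice at E14.5, when striatal neurons and interneurons are being born and are migrating in the embryo. The genes were Nrg1, Nrg2 and Nrg3, the receptor genes Egfr, Erbb2, Erbb3 and Erbb4, the chemokine gene Cxcl12 and its receptor genes Cxcr4 and Ackr3. A locus was the RefSeq span of a gene with 50 kb added on each side, and every deposited peak that overlapped a locus by at least 1 bp was taken. This gave 136 of the 87174 peaks of the series, and no peak fell in 2 of the loci. A peak is a stretch of mm10 called accessible to the transposase in single-nucleus ATAC-seq. The study made 2 libraries of 1 group, with C57BL/6J and CD1 as strain background and with no other genotype, stage or tissue, and the labels do not say how many embryos were used. Both libraries are represented by 1 shared list of positions without counts, scores or samples. Depth is therefore unknown, no value below has a replicate error, and no test between groups was possible.

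Neuregulins are ligands with an EGF-like domain, and they bind ErbB3 and ErbB4, receptor tyrosine kinases that pair with ErbB2 or with each other. Interneurons born in the ganglionic eminences use ErbB4 while they migrate, and neuregulin isoforms made along their route and in the cortex guide them. Cxcl12 is a chemokine of the meninges and of cortical progenitors, and it keeps these neurons in their migratory streams through the G protein-coupled receptor Cxcr4, while Ackr3 binds and removes the chemokine. These points are background and were not measured here.

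Bases before the annotated start are shown for Cxcl12 and its receptors, whose windows held most of the matches to the searched words, and for Erbb4 and Nrg3, 2 genes over 1000 kb with a wide peak at the start. RefSeq start windows (GRCm38.p6) matched 7 of the 10 members, and Nrg1, Nrg2 and Erbb3 had no entry. Each sequence gives the 250 bases before the start, 5′ to 3′ on the strand of the gene, with matches in capitals. The windows are chr6:117168285-117168534 on the plus strand for Cxcl12, chr1:128592300-128592549 on the minus strand for Cxcr4, chr1:90203730-90203979 on the plus strand for Ackr3, chr1:69108060-69108309 on the minus strand for Erbb4 and chr14:39473089-39473338 on the minus strand for Nrg3.
Cxcl12: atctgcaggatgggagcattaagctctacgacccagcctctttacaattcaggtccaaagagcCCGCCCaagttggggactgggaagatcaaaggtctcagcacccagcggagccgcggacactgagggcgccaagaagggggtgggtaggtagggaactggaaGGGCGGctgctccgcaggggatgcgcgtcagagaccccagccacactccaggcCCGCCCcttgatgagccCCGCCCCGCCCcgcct
Cxcr4: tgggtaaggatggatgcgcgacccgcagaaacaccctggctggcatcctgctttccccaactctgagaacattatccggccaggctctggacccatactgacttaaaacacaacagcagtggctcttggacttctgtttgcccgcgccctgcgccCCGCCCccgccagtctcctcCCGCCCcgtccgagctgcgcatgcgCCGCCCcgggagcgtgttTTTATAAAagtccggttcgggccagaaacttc
Ackr3: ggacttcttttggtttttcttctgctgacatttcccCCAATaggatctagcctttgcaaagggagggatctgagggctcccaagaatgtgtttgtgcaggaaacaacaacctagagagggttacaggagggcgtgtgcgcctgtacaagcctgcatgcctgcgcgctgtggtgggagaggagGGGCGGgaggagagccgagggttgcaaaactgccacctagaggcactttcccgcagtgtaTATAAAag
Erbb4: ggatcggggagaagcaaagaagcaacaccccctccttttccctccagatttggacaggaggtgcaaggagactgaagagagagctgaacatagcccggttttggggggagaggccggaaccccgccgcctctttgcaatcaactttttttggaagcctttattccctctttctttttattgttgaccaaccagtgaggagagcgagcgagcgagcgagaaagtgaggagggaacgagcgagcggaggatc
Nrg3: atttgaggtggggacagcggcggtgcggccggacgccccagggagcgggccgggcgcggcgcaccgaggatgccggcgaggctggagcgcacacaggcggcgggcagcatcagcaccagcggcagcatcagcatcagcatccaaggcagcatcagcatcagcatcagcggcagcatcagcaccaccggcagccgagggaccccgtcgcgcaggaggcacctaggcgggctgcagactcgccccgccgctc

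Each of the 7 windows lay whole inside a peak. The capitals mark GGGCGG (the SP type word) on either strand, where the opposite strand reads CCGCCC, and CCAAT and TATAAA on either strand. Matches of CCGCCC overlap each other next to the Cxcl12 start. GGGCGG was present in 4 of 7 member windows, 5 times in that of Cxcl12, 3 times in that of Cxcr4 and 1 time each in those of Ackr3 and Egfr, against 42.6% of the 21263 windows of protein-coding genes. TATAAA was present in 2 windows, beginning 30 bases before the Cxcr4 start (and 32 bases before it on the opposite strand, overlapping) and 8 bases before the Ackr3 start, against 11.6% of all windows. CCAAT was present in those of Erbb2 and Ackr3, against 35.4%. Erbb4 and Nrg3 had no match to any of the words searched, and so carry no capitals. TAATTA (DLX type), TGACAG (MEIS type), ACAAAG (SOX type), TTGGCA (NFI type) and TGACTCA (AP-1), each on both strands, were in no member window. They were in 4.31%, 15.4%, 14.9%, 11.5% and 4.06% of all windows. A match or its lack describes these letters alone. The window of Nrg3 had 72.4% G and C and 27 CpG, that of Ackr3 had 54% and 7, and the medians over all windows were 55.6% and 10.

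Where the peaks lay differed between the groups of genes. Of the 136 peaks, 11 lay within 1000 bp of an end of the member gene, called gene-end peaks here, 70 lay elsewhere inside it and 55 lay in the flanks. The neuregulin loci held 58 peaks, 47 of them inside the gene and 9 in the flanks. The ErbB loci held 48, with 19 inside and 23 in the flanks, and the chemokine and receptor loci held 30, with 4 inside and 23 in the flanks. Nrg1 alone held 32 of the 47 internal peaks of the neuregulin loci. In Nrg3, the longest member, 10 peaks overlapped the span, and in Erbb4, of similar length, 15 did. Flanks were 50 kb at genes of every length, so long genes have a larger share of their locus inside. In width the peaks ran from 12 to 4009 bp with a median of 512.5 bp, against 565 bp over all peaks. The 24 that were within 1000 bp of an end of any protein-coding gene had a median of 1822 bp and the other 112 a median of 474 bp. Over all 87174 peaks these medians were 1575 and 497 bp, and 17.4% of peaks were at such an end against 17.6% in the member loci.

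Of the 10 members, 9 had a gene-end peak, against 67.3% of all 21774 protein-coding genes (exact Clopper-Pearson 95% interval for the members 55.5% to 99.7%, covering counting error alone), and Nrg1 was the member without one. Longer genes had one more often, with 49.7% of genes under 10 kb and 86.4% of genes over 1000 kb, and for the broad peaks given next these shares were 13% and 50.8%. Erbb2 and Erbb3 had one at both ends, as had 14.8% of protein-coding genes. At 1 end of each, that peak lay outside the gene and held the RefSeq start of a neighbour, Mien1 at Erbb2 and Pa2g4 at Erbb3. A broad peak, from the widest 5% of all peaks (over 2544 bp), lay within 1000 bp of the span at 6 members, Nrg1, Nrg3, Erbb4, Cxcl12, Cxcr4 and Ackr3, against 17.3% of protein-coding genes. Nrg1 passed this width narrowly with 2551 bp and Nrg2 missed it narrowly with 2529 bp. No member had a peak of the widest 1%, which 3.95% of protein-coding genes had. Each member locus held at least 3 peaks, whereas 14.1% of protein-coding genes had none.

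Nrg1, the neuregulin with the best described part in interneuron migration, had more peaks than any other member and no peak at either annotated end. Its span of 1084158 bp on chromosome 8 (31807452 to 32891609) and flanks held 34 peaks, 32 of which overlapped the span. The widest was 2551 bp (chr8:32007860-32010411) and overlapped the non-coding gene Gm26578 inside Nrg1. Next was one of 2437 bp (chr8:31917612-31920049) that overlapped the non-coding gene Gm33223. Another wide peak, of 2256 bp (chr8:32883145-32885401), ended 6208 bp inside the high-coordinate end of Nrg1 and overlapped the non-coding gene Gm51527. The nearest peak outside that end was 4929 bp away, and the nearest peak to the other end was 7342 bp away. Starts of single Nrg1 transcripts were not used here, so internal promoters could not be told from other internal sites.

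Peaks within Nrg1 were uneven. A run of 10 peaks, each under 15 kb from the next, filled 54.1 kb (chr8:31889909-31943960) and began 82.5 kb from the low-coordinate end. A second run of 4 peaks filled 9.85 kb (chr8:32284425-32294278), with peaks of 648, 737, 1673 and 1894 bp. Between them lay the longest stretch of the gene without a peak, of 224918 bp, or 20.7% of the span. With the span cut into 5 equal parts from the low-coordinate end, they held 12, 3, 10, 1 and 6 peaks. The first and the middle part thus held most of them. One peak of the locus (chr8:32025721-32025733) was 12 bp wide, the narrowest of all members.

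Nrg3, which encodes another neuregulin that attracts interneurons to the cortex, had a peak at its start and few others. Its span of 1108134 bp on chromosome 14 (38365102 to 39473235), the longest of the members, and flanks held 11 peaks, 0.91 per 100 kb of locus, the lowest density of any member. The start peak of 3946 bp (chr14:39471044-39474990) reached 1902 bp before and 2044 bp past the RefSeq start, and it also held the start of the non-coding gene LOC432842. The other 10 peaks were between 27 and 610 bp wide. The 459822 bp at the far end of the gene, 41.5% of the span, had no peak. Counted from that end, 5 equal parts of the span held 0, 0, 3, 2 and 5 peaks, so peaks inside Nrg3 lay toward the start. Peaks covered 0.45% of the Nrg3 span against 2.36% of the Nrg1 span.

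**Figure D1:**
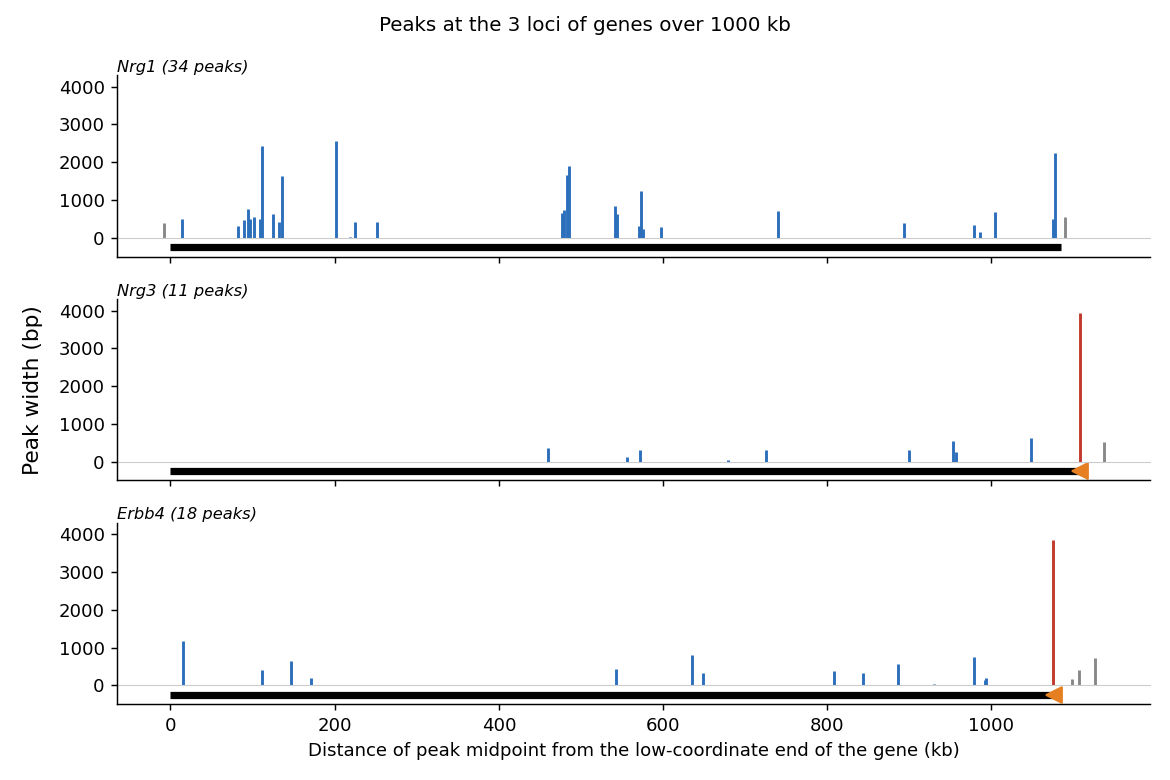
Peaks at the loci of Nrg1, Nrg3 and Erbb4, each drawn at the distance of its midpoint from the low-coordinate end of the gene (kb) with its width in bp as height. Black bars are gene spans, orange arrowheads the side of the RefSeq start where listed, red lines gene-end peaks, blue lines other peaks inside the gene and grey lines flank peaks. Nrg3 and Erbb4 have a tall line at the start, of 3946 and 3863 bp, and Nrg1 has none at either end.

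Nrg2, a further neuregulin, had a wide peak over one end, another near the other end and one more inside the gene. On chromosome 18 (36014581 to 36197532, 182952 bp), its locus held 13 peaks, 7 of which overlapped the span. A peak of 2529 bp (chr18:36195630-36198159) covered the high-coordinate end. The next in width was a peak of 2475 bp (chr18:36017040-36019515), 2459 bp inside the low-coordinate end. A peak of 2138 bp (chr18:36067600-36069738) inside the gene overlapped the non-coding gene Gm41694. The remaining 4 peaks of the span were 283 to 835 bp wide. The longest stretch without a peak was 72903 bp, 39.8% of the span. In the low flank a peak of 2373 bp lay at an end of Psd2, the neighbouring gene.

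Erbb4, the neuregulin receptor of migrating interneurons, had a wide start peak, as Nrg3 did, and peaks toward both ends of the gene. The span of 1076693 bp on chromosome 1 (68031884 to 69108576) and flanks held 18 peaks, 15 of which overlapped the span, or 1.53 per 100 kb. The start peak was 3863 bp wide (chr1:69105067-69108930). It reached 871 bp before the RefSeq start and 2992 bp past it, so most of it lay inside the gene. The widest of the other peaks was 1181 bp (chr1:68046400-68047581), near the far end of the gene. Within the span 370238 bp, or 34.4%, formed the longest stretch without a peak. From the far end, 5 equal parts of the span held 4, 0, 2, 3 and 6 peaks. No other protein-coding gene lay in the locus, and all 18 peaks were nearer to an end of Erbb4 than to an end of any other protein-coding gene. Nearest to an end of the member itself were 21 of 34 peaks at Nrg1, 4 of 13 at Nrg2, 3 of 11 at Nrg3 and 6 of 9 at Egfr. The other 13 at Nrg1 were nearest to Gm3985, which overlaps its high-coordinate end. The other 8 at Nrg3 were nearest to Gm31606, which lies inside Nrg3.

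Egfr, whose product binds EGF and related ligands rather than neuregulins and marks dividing progenitors, had the narrowest widest peak of the members. Its span of 161705 bp lies on chromosome 11 (16752203 to 16913907). The locus held 9 peaks. The start peak of 1577 bp (chr11:16751849-16753426) reached 354 bp before and 1223 bp past the start, and the other 5 peaks of the span were 451 to 547 bp wide. A run of 4 peaks filled the first 18.3 kb, start peak included, and the longest stretch without a peak was 61806 bp. In the flank beyond the gene, peaks of 1041, 291 and 1321 bp overlapped the non-coding gene Eldr. The one of 1321 bp also held the start of Fbxo48. No peak lay within 27445 bp of the far end of Egfr.

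**Figure D2:**
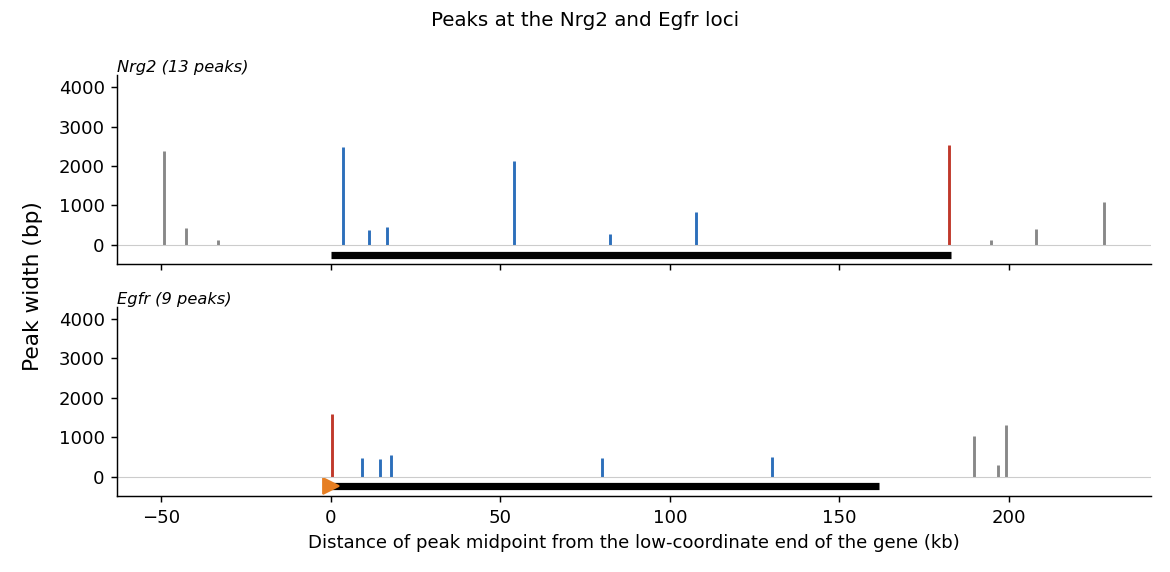
Peaks at the Nrg2 and Egfr loci, with distance from the low-coordinate end of the gene (kb) on the horizontal axis and peak width (bp) as height; colours, bars and arrowheads are as in the plot of the genes over 1000 kb. Nrg2 has internal or end peaks of 2475, 2138 and 2529 bp, whereas the widest Egfr peak is the start peak of 1577 bp.

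Erbb2, which has no known ligand of its own and serves as partner of the other ErbB receptors, lay among other genes, and so did Erbb3, which binds neuregulins but has little kinase activity. At Erbb2 (chromosome 11, 98412484 to 98437716, 25233 bp) the locus held 12 peaks and 7 other protein-coding genes. The start peak of 2133 bp (chr11:98412028-98414161) was the only one to overlap the span, and the rest of the gene, 23555 bp or 93.3%, had none. The second gene-end peak, of 1077 bp (chr11:98438267-98439344), began 551 bp past the far end and held the RefSeq start of Mien1. In all, 8 of the 12 peaks were at an end of another protein-coding gene, Tcap, Pnmt, Pgap3, Mien1 or Grb7. A peak of 1418 bp inside Stard3 was the widest away from any protein-coding gene end.

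At Erbb3 (chromosome 10, 128567523 to 128589635, 22113 bp) the locus held 9 peaks and 6 other protein-coding genes. A peak of 1823 bp (chr10:128589034-128590857) covered the high-coordinate end and was the only one to overlap the span. The other gene-end peak, of 1990 bp (chr10:128564976-128566966), stopped 557 bp before the low-coordinate end and held the RefSeq start of Pa2g4. The widest peak of the locus, of 3948 bp (chr10:128546106-128550054), held the starts of Zc3h10 and of the ribosomal protein gene Rpl41, and one of 2600 bp held that of Esyt1. The peaks of largest width at the Erbb3 locus were thus at neighbouring genes. Nearest to an end of the member itself were 1 of 9 peaks at Erbb3 and 3 of 12 at Erbb2.

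Cxcl12 had 3 peaks in its locus, Cxcr4 had 13 and Ackr3 had 14, and the difference lay in the flanks. Within the gene spans alone the counts were 3, 1 and 3, or 23.4, 24.4 and 25.5 per 100 kb. The 3 Cxcl12 peaks were a start peak of 3160 bp (chr6:117166746-117169906) and peaks of 498 and 314 bp, whose midpoints lay 5522 and 7076 bp past the start. All overlapped the span of 12834 bp on chromosome 6 (117168535 to 117181368), and neither flank held a peak. Before the start peak, no peak was listed for 271210 bp, and after the third peak none for 77775 bp. The Cxcl12 start peak reached 1789 bp before and 1371 bp past the start.

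Cxcr4, a gene of 4101 bp on chromosome 1 (128588199 to 128592299), had 13 peaks in its locus, 12 of them in the flanks. The start peak of 3233 bp (chr1:128590595-128593828) covered 41.6% of the span and reached 1529 bp before the start. A peak of 1589 bp (chr1:128594449-128596038) followed upstream of it, and one of 1131 bp (chr1:128585636-128586767) lay 1432 bp beyond the far end of the gene. A run of 6 peaks filled 28.9 kb around the gene. The locus held no other protein-coding gene, and each of the 13 peaks was nearest to an end of Cxcr4.

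Ackr3, a gene of 11745 bp on chromosome 1 (90203980 to 90215724), had the widest peak of all members and 14 peaks in its locus. The start peak of 4009 bp (chr1:90202021-90206030) reached 1959 bp before and 2050 bp past the start. A peak of 3113 bp (chr1:90206662-90209775) followed inside the gene, and with a further peak of 439 bp they covered 47.7% of the span. It was the only member with 2 broad peaks at its own gene. A run of 13 peaks, each under 15 kb from the next, filled 75.7 kb. The outermost peak of the run, of 1110 bp, reached the edge of the locus and held the start of Iqca, and 4 of the 14 peaks were nearest to an end of that gene.

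**Figure D3:**
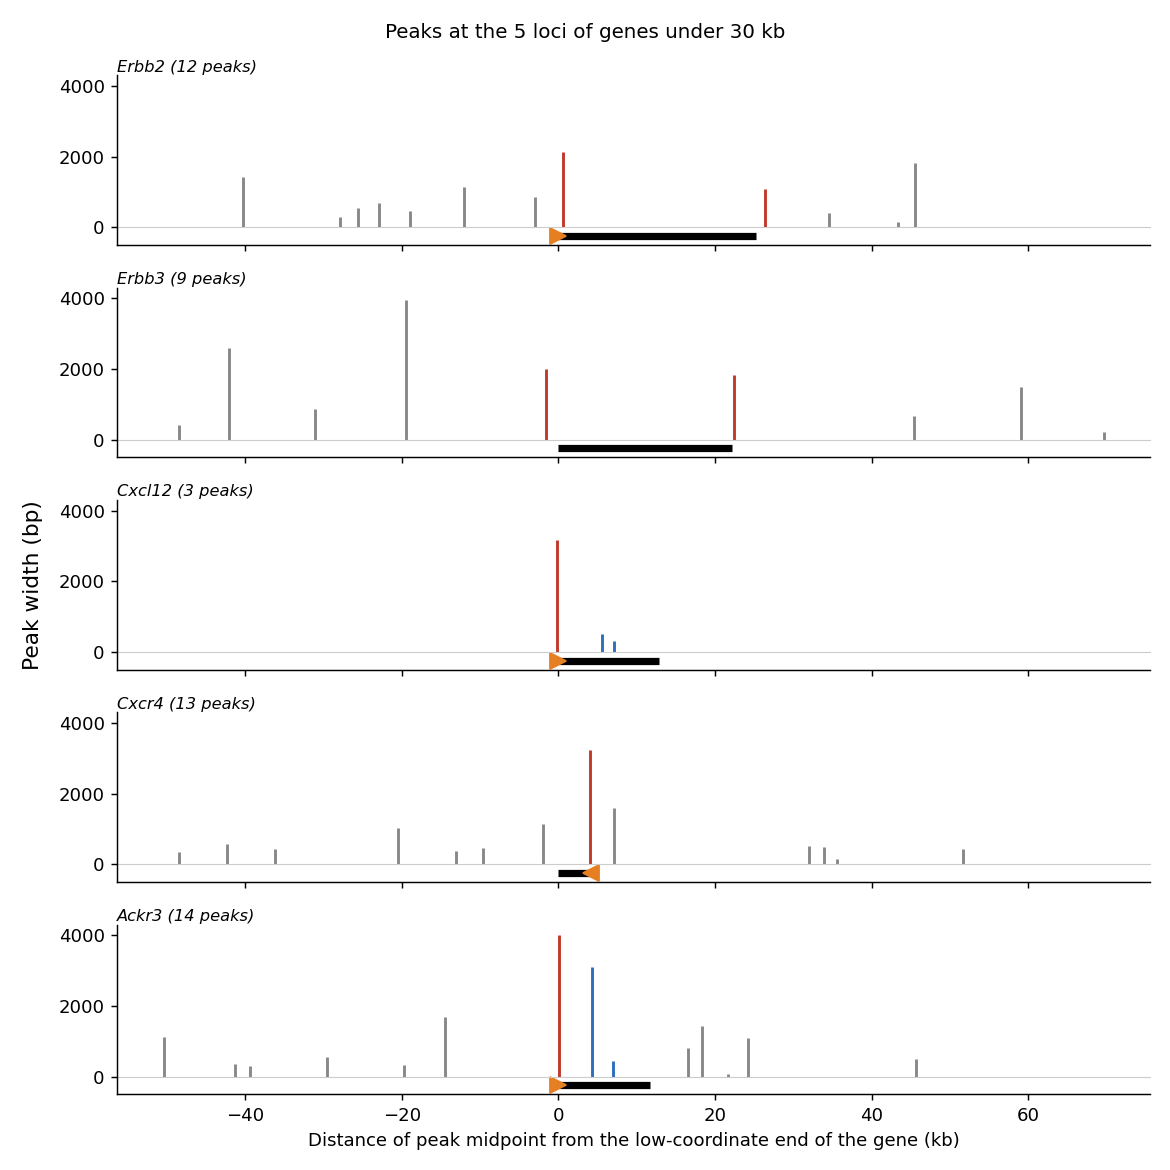
Peaks at the loci of Erbb2, Erbb3, Cxcl12, Cxcr4 and Ackr3, with distance from the low-coordinate end of the gene (kb) on the horizontal axis and peak width (bp) as height; colours, bars and arrowheads are as in the plot of the genes over 1000 kb. Cxcl12 has 3 peaks and empty flanks, Cxcr4 and Ackr3 have peaks on both sides, and the widest Erbb3 line lies outside the gene.

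Start peaks of the members were compared with those of other genes. A peak covered 63.4% of the 21263 RefSeq starts of protein-coding genes, with a median width of 1784 bp (quartiles 1346 and 2435 bp). Among these, Ackr3 stood at percentile 93.1, Nrg3 at 92.8, Erbb4 at 92.4, Cxcr4 at 87.8 and Cxcl12 at 87.1. Erbb2 stood at 64.9 and Egfr at 39.1. Among the 7 members with a listed start, the 5 with the widest start peaks were thus the chemokine, both of its receptors, Erbb4 and Nrg3.

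Long genes hold more peaks, so each count was set beside genes of its length class. The median over all protein-coding genes was 6 peaks per locus and 4.58 per 100 kb. Over the 59 genes longer than 1000 kb the median was 28 peaks (quartiles 16.5 and 45), and Nrg1 ranked 24, Erbb4 43 and Nrg3 51 among them by number of peaks, each tied with 1 or 2 other genes. Nrg1 was thus inside the quartiles, with Erbb4 near the lower quartile and Nrg3 below it. Between 100 and 300 kb the median was 11, and Nrg2 with 13 and Egfr with 9 lay inside the quartiles of 6 and 17. Between 10 and 30 kb the median was 6 with quartiles of 3 and 10. Ackr3 with 14 and Erbb2 with 12 lay above the upper quartile, Erbb3 with 9 lay below it and Cxcl12 with 3 was at the lower quartile. Under 10 kb the median was 4, and Cxcr4 with 13 lay above the upper quartile of 9. Per 100 kb of locus, Ackr3 and Cxcr4 each had 12.5 peaks, at percentiles 93.5 and 93.4 of all protein-coding genes. Nrg3 was at percentile 17. These percentiles do not allow for gene length. The median density was 3.93 per 100 kb under 10 kb, 5.25 from 10 to 30 kb and 1.92 over 1000 kb. In that longest class Nrg1 had 2.87, Erbb4 1.53 and Nrg3 0.91. The median density of the 10 members was 4.02 per 100 kb. Within gene spans alone, Erbb2 had 3.96 in place of 9.58 and Erbb3 4.52 in place of 7.37 per 100 kb, whereas Cxcl12, Cxcr4 and Ackr3 were higher, as given above. With flanks of 100 kb, Erbb2 in place of Ackr3 had the highest density.

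**Figure D4:**
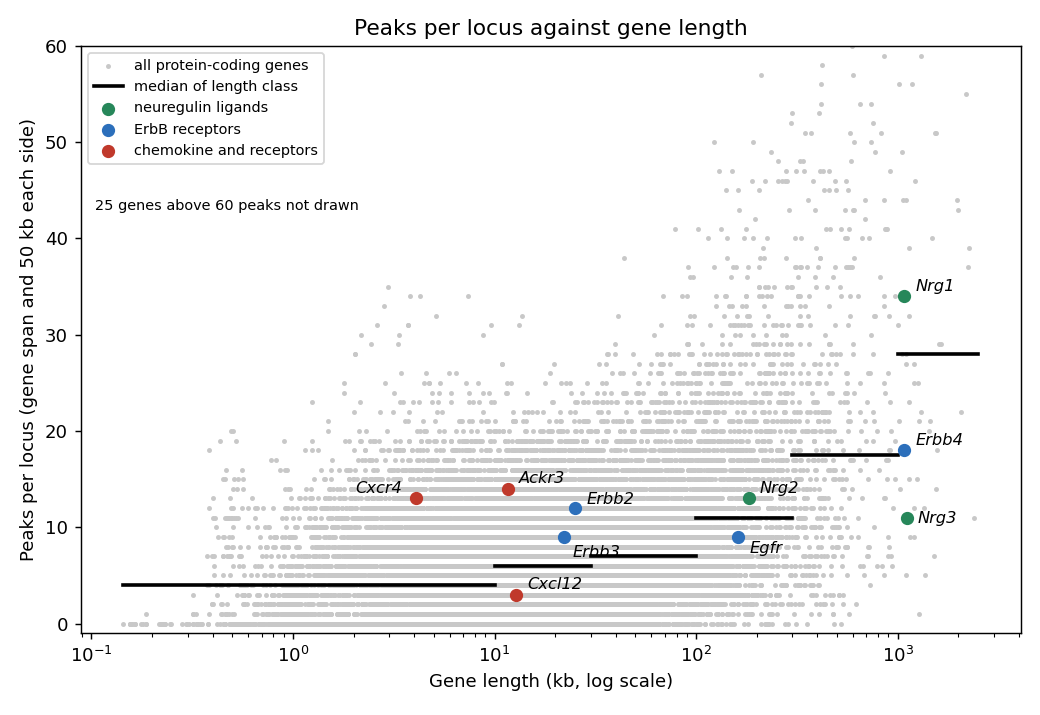
Number of peaks per locus against gene length in kb (log scale) for all protein-coding genes (grey) and the 10 members (coloured by role), with black lines for the median of each length class; 25 genes with more than 60 peaks are beyond the axis. Nrg1 lies above the median line of its class, Erbb4 and Nrg3 lie below the same line, and Cxcr4 and Ackr3 lie above theirs.

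Other genes of the same pathways, 42 in 7 lists, were then described. Gene-end peaks lay at 36 of 42, against 67.3% of protein-coding genes (exact 95% interval 71.5% to 94.6%), and a broad peak at 17 of 42, against 17.3%. Only 6 of the 42 were shorter than 10 kb. In the longer classes, which hold the other 36, gene-end peaks were at 72.6% to 88.2% of protein-coding genes and broad ones at 14.8% to 50.8%. The interval for the 42 genes overlaps that range of gene-end shares. For broad peaks the interval was 25.6% to 56.7%, which overlaps the range of broad shares. The classes from 10 to 300 kb hold 13, 14 and 7 of the 42 genes, with broad peaks at 14.8%, 18.6% and 32.8% of protein-coding genes. The 2 longer classes hold 1 each. The median was 9 peaks per locus and 6.49 per 100 kb, above the 6 and 4.58 of all protein-coding genes. All 42 had at least 1 peak in their locus.

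The other ErbB ligand genes had few peaks. Of 8, 6 had a gene-end peak and 1, Hbegf (heparin-binding EGF), had a broad one, against 67.3% and 17.3% of all protein-coding genes. The median was 3.5 peaks per locus. Hbegf had 9 peaks, Egf and the transforming growth factor gene Tgfa had 7 each, and the amphiregulin gene Areg had 1. Nrg4 and Epgn had no gene-end peak. Genes acting downstream of the receptors had more. All 10 adaptor and effector genes had a gene-end peak and 6 a broad one. In their length classes, from 10 to 300 kb, these shares were 72.6% to 83.3% and 14.8% to 32.8% of protein-coding genes. The kinase gene Akt1 had 20 peaks, the docking protein gene Gab1 18 and the phosphatase gene Ptpn11 15. Of these, 7, 13 and 6 overlapped the gene span, and the others lay in the flanks. Among inhibitors, Lrig1, whose product lowers ErbB receptor levels, had 20 peaks, Rnf41 had 11 and Errfi1 had 7, all with a gene-end peak. The proteases Adam10, Adam17 and Bace1, which shed or cleave neuregulins, had 5, 5 and 6 peaks, each with a gene-end peak and none broad.

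On the chemokine side, gene-end peaks were at 2 of 6 related chemokine and receptor genes, Cxcl14 and Cxcr5, and at none of Ackr1, Ackr2, Ackr4 and Cxcr3. All 6 are shorter than 30 kb. Gene-end peaks were at 49.7% of protein-coding genes under 10 kb and at 72.6% of those from 10 to 30 kb. Cxcl14 had 11 peaks in its locus, Cxcr5 had 9 and Ackr2 had 8. Genes for the G proteins, kinases and arrestins that act on chemokine receptors had a gene-end peak in 7 of 7 cases, against 67.3% of all protein-coding genes. The shortest of them is under 10 kb. In the length classes of the others, from 10 to 300 kb, the share was 72.6% to 83.3%. Gnai2 had 25 peaks, Gnai3 17, and Grk3 and Arrb1 16 each, whereas Gnai1 had 2. Loci among close neighbours share peaks with them, so a count near such a gene is not its own alone.

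**Figure D5:**
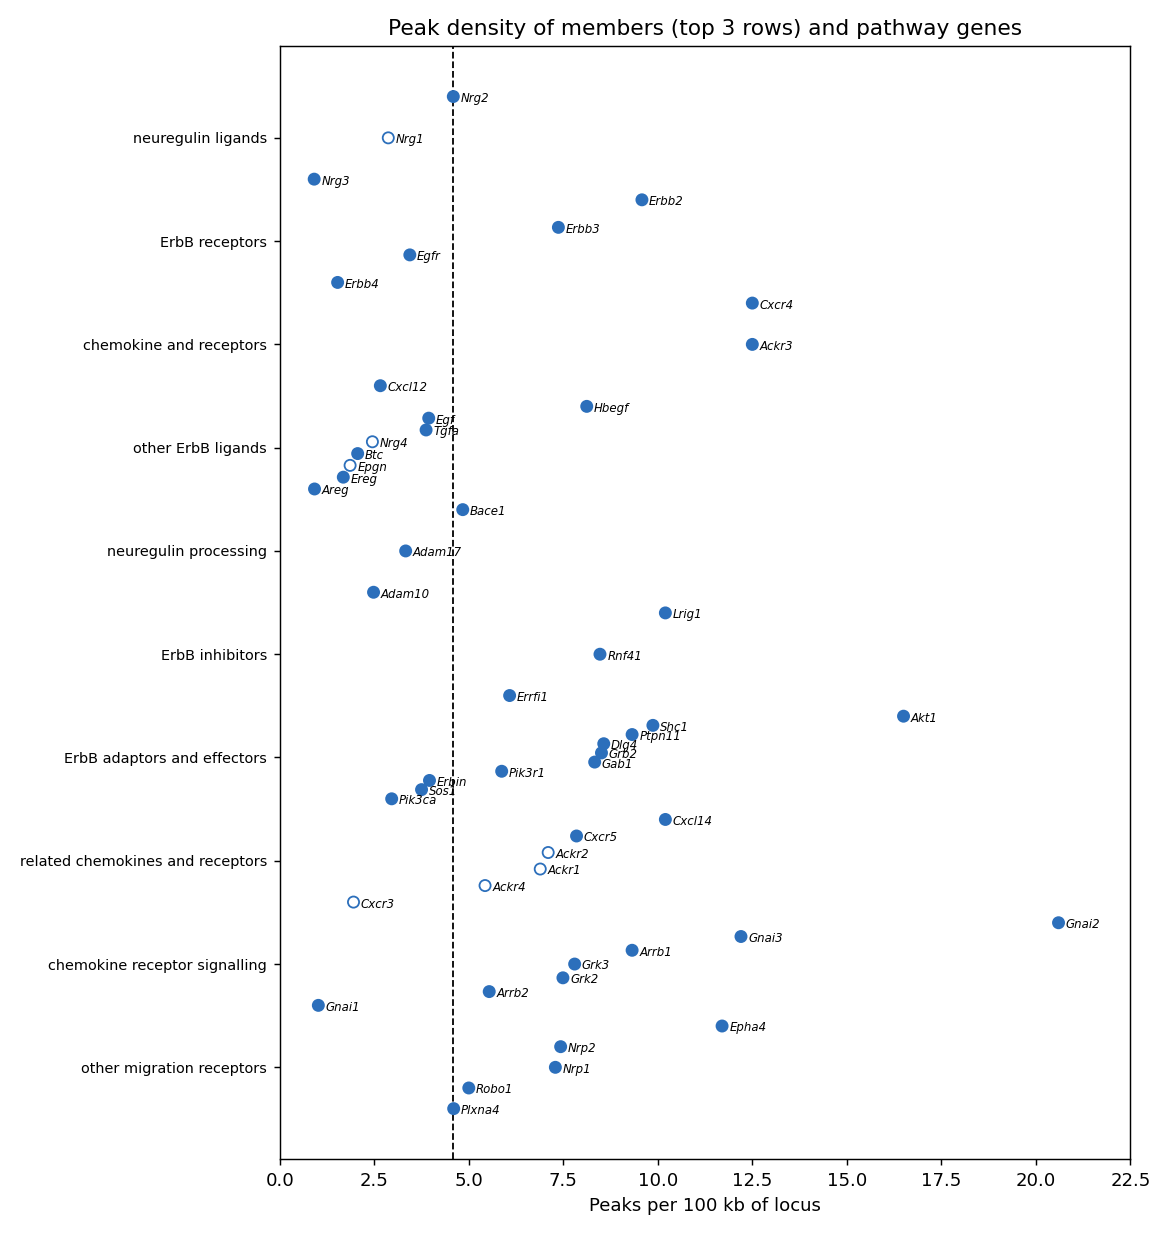
Peaks per 100 kb of locus for the 10 members (top 3 rows) and 42 other pathway genes by list. Filled points have a gene-end peak and open points have none. The dashed line is the median of all protein-coding genes of any length, 4.58. Cxcr4 and Ackr3 lie at 12.5, right of the 6 related chemokine and receptor genes, and Nrg3 and Areg lie furthest left among the ligands.

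The labelled tissue was compared with marker genes. All 12 striatal and ganglionic eminence markers had a gene-end peak and 11 of them a broad one, against 67.3% and 17.3% of protein-coding genes. Of the migrating interneuron markers 6 of 6 had gene-end peaks and 5 had broad ones. Gene-end and broad peaks were at 6 of 6 and 4 cortical excitatory markers and at 3 of 3 and 2 Cajal-Retzius markers. Oligodendrocyte lineage markers had them at 4 of 4 and 2. Meningeal and fibroblast markers, from a tissue that makes Cxcl12, had them at 5 of 6 and 1, with no peak in the locus of Lum. Endothelial markers had gene-end peaks at 2 of 4 and microglia markers at 1 of 4, and neither list had a broad one. From 1 list over all nuclei, it cannot be told which cells were accessible at a given peak, and the part of other cell types in the member peaks was not tested.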

How the data were processed

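Nuclei of striatum at E14.5 were profiled by single-nucleus ATAC-seq with 10x Genomics reagents, in 2 libraries of 1 group, per the labels' protocols. Per the submitters' processing notes, Signac and Cell Ranger ATAC (1.2.0) are named with build mm10, without their roles. The authors deposited 1 list of peak positions for both libraries. The peak caller, pooling and treatment of doublets are not given in the sources used here. Neighbouring peaks lie at least 501 bp apart, and any joining of close regions lowers counts and raises widths. Positions are printed as deposited, may be off by 1 base, and width is end minus start.

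Gene spans came from RefSeq GRCm38.p6, the assembly mm10 names. Of 49997 entries 402 were left out (scaffolds, no main chromosome, or a symbol listed more than once), which left 49595 genes, 21774 of them protein-coding. The table has no strand or exons. Start windows, with strand, came from a separate RefSeq table for 7 members. Overlaps were counted in Python 3.11.15 with pandas 2.3.3 and checked on simulated data. Densities are peaks per 100 kb of locus. Percentiles of density are among all protein-coding genes. Those of start peaks are among the 13480 RefSeq starts of protein-coding genes that lay in a peak. A gene can have more than 1 start, as the 21263 starts belong to 17492 genes. Ties are split evenly. Intervals are exact 95% Clopper-Pearson intervals (scipy 1.17.1) and cover counting error alone. The genes were chosen and not drawn at random, so the intervals do not extend to other genes. No p-value was computed, since replicate values do not exist in the list. Likeness of pattern to other genes could not be measured for the same reason.

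Members and lists were chosen with earlier results of these data known. Named were all 10 members with their gene-end peaks, widest peaks and longest stretch without a peak, up to 3 genes with most peaks per pathway list and neighbours that share a described peak. Further genes, namely Areg, Gnai1, Nrp1, Nrp2, those lacking gene-end peaks and non-coding genes without a peak, were chosen after their values were seen. So were the runs of 4 or more peaks under 15 kb apart. One searched word and the neighbours of a member in rank are not reported here. Alternatives changed the flank, overlap, peak set, gene-end window and width limit.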

Additional observations from a re-analysis of the deposited data

How the results depend on the processing

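The 136 peaks of the member loci became 79 within gene spans alone, 59 when limited to peaks wider than the median and 82 when limited to peaks nearest to an end of the member, and the other 4 alternatives gave 91 to 195. The median density of 4.02 per 100 kb became 1.69 with the wider peaks, while the median share of a locus covered by peaks was 4.1%. At the other flanks, or with none, the median density was between 3.89 and 4.54, but single members moved in opposite directions. Within gene spans alone it went from 2.66 to 23.4 at Cxcl12, from 12.5 to 24.4 at Cxcr4 and from 12.5 to 25.5 at Ackr3, and down from 9.58 to 3.96 at Erbb2 and from 7.37 to 4.52 at Erbb3. With flanks of 10 kb it was 9.14 at Cxcl12, 18.9 at Ackr3 and 4.75 at Erbb3. Members with a broad peak numbered 0 with the widest 1% of peaks and 9 with the widest 10%. Members with a gene-end peak numbered 9 at windows of 500 and 2500 bp and with wider peaks, and 7 with annotated starts, which 7 members have. Pathway genes with a gene-end peak numbered 35 to 37. No paired analysis was possible because both libraries share 1 list, and for that reason no library could be left out. Depth is unknown, so a site without a listed peak cannot be called closed.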

Other observations

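Genes of 5 other receptors used in the migration of interneurons and striatal neurons had both gene-end and broad peaks, at 5 of 5 each, against 67.3% and 17.3% of all protein-coding genes. All 5 are longer than 100 kb, and in those length classes gene-end peaks were at 83.3% to 88.2% and broad ones at 32.8% to 50.8% of genes. Robo1, a receptor for Slit proteins, had 56 peaks in its locus. Its length of 1019974 bp is close to the 1076693 bp of Erbb4, with 18 peaks, and the 1084158 bp of Nrg1, with 34. The ephrin receptor gene Epha4 had 29 peaks, the plexin gene Plxna4 25, and the semaphorin receptor genes Nrp1 and Nrp2 18 and 16. All 5 had more peaks than Cxcr4 or Ackr3, with 13 and 14, but they are longer genes, and long genes hold more peaks. Their densities of 4.6 to 11.7 per 100 kb were below the 12.5 of both, but density also differs with length. Its median was 3.93 per 100 kb under 10 kb and 5.25 from 10 to 30 kb, the classes of Cxcr4 and Ackr3. In the classes of these 5 receptors it was 4.33 from 100 to 300 kb, 3.2 from 300 to 1000 kb and 1.92 over 1000 kb.

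Several internal peaks of the neuregulin genes lay over non-coding genes. Inside Nrg1, the non-coding genes Gm33223 and Gm26578 were overlapped by 1 peak each, of 2437 and 2551 bp, and Gm39155 by 3 peaks of 162 to 690 bp. Inside Nrg3, the antisense gene Nrg3os was overlapped by 2 peaks, of 113 and 301 bp, and inside Nrg2, Gm41694 by 1 of 2138 bp. Other non-coding genes inside these genes had no peak, such as Gm8179 in Nrg1 and Gm20642 in Nrg3. The share of such overlaps that gene lengths alone would give was not computed. The list does not tell which gene such a peak belongs to.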
